A study of Mus musculus with 4 samples.

Results

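*Zic1*, *Pax3*, *Pax7*, *Msx1*, *Msx2*, *Gsx1*, *Pax6*, *Dbx1*, and *Dbx2* code for transcription factors that mark dorsal or intermediate progenitor domains of the neural tube. They are a list of names, to which no limit on values was applied, and make up 9 of the 27612 genes listed in single-cell transcriptomes of 4 mouse neural stem cell (NSC) lines. The tables of XN4, XN1, and CN4 list all 9 genes, and the KN1 table lists 4 of them, *Pax3*, *Pax6*, *Dbx1*, and *Dbx2*. The lines were derived from epiblast stem cells (EpiSCs), which model the late epiblast, in EGF and FGF2 at 10 ng/mL each. The Wnt antagonist XAV was present at 10 µM for XN4 and XN1 (from different suppliers), neither agent for KN1, and the Wnt agonist CHIR at 2 µM for CN4. The authors reported that the XAV used for XN1 formed crystals, and inferred a lower effective concentration than for XN4. Each line was measured as 1 BD Rhapsody library, a method that barcodes the mRNA of single cells in microwells, so no test between lines could be made, and line, Wnt condition, and library cannot be told apart.

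Along the dorsoventral axis of the neural tube, BMP and Wnt ligands from the roof plate and Sonic hedgehog from the floor plate divide the progenitors into bands, each with its own set of transcription factors. The roof plate and dorsal bands express *Msx1*, *Msx2*, *Zic1*, *Pax3*, *Pax7*, and *Gsx1*, *Dbx1* and *Dbx2* mark the intermediate bands, and *Pax6* spans a broad range of them. *Pax3*, *Pax7*, *Msx1*, and *Msx2* are also used by the neural crest or by muscle and other mesenchymal precursors outside the neural tube.

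The values are numbers of sequence reads and not of unique molecules, and capture of a transcript means 1 read or more in that cell. Exact (Clopper-Pearson) 95% intervals are given for cell fractions, and exact Poisson intervals for read levels. They cover at most counting error. The Poisson intervals treat reads as independent, which reads of the same molecule are not, so those of read levels are too narrow. The tables of all reads held 140311227 reads in 8741 XN4 cells, 93096507 in 14452 XN1 cells, and 180825519 in 18157 CN4 cells, with medians of 12615, 5981.5, and 9173 reads per cell. KN1 had 27563145 reads in the 3975 cells of its normalized table, with a median of 5862 reads but only 833 genes per cell, against 2379 to 3095 genes in the other lines. Between 37 and 320 cell labels were shared by any pair of libraries, and leaving out all such cells moved the cell fraction of a member by at most 0.102 percentage points. XN4 stood apart in its markers. *Sox2*, the pan-neural progenitor factor, was captured in 0.561% of XN4 cells, against 85.9% in CN4, 63.5% in XN1, and 13.9% in KN1. *Fabp7* and *Hes5* had 0 reads in XN4, which allows a cell fraction of up to 0.0343% when the limit for 0 is set at 3 of the 8741 cells, and up to 0.0422% by the exact interval. Not all neural progenitor markers were low there, and 5 of 10 were captured in at least 1% of XN4 cells. They were *Vim* (84.8%), *Zeb2* (57.9%), *Notch1* (21.7%), *Msi1* (17.8%), and *Nes* (8.56%). All 10 markers of mesenchyme and connective tissue were captured in at least 1% of XN4 cells (49.1% of all genes were), with a summed level of 5987 reads per 1000000 (RPM) over all reads (KN1, normalized table), while the sums were 146 in CN4, 103 in XN1, and 10.7 in KN1. XN4 is therefore called by its name and not by its cell type below.

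The number of these factors captured in at least 1% of cells differed among the lines. CN4 captured 4 of the 9 genes in at least 1% of its cells (*Zic1*, *Pax3*, *Pax6*, and *Dbx2*), whereas 48.3% of all genes in its table reached that share. XN1 captured 2 (*Pax6* and *Dbx2*; 48.8% of all genes), KN1 captured 1 of its 4 listed members (*Pax6*; 73.7% of all genes, in a table without rare genes), and XN4 captured 0 (49.1% of all genes). With a limit of 0.5% in place of 1%, the counts were 6 in CN4 and 2 in each of XN1, KN1, and XN4. The median cell fraction over the members was 0.567% in CN4, 0.465% in KN1, 0.355% in XN4, and 0.145% in XN1, below the medians over all genes of 0.755%, 3.25%, 0.869%, and 0.796%, respectively. At least 1 member was captured in 80.8% of CN4 cells, 20.0% of XN1 cells, 7.19% of KN1 cells, and 2.70% of XN4 cells. The normalized tables list 7 members in CN4, 3 in XN1, 4 in KN1, and 6 in XN4. When their cells were thinned to 3000 reads, the fractions with any listed member were 62.2%, 13.8%, 5.53%, and 0.867%, respectively. The order of the lines was thus the same at equal total reads, over unlike sets of members. The number of genes per cell was not made equal by thinning, with medians of 1767 in CN4, 1728 in XN1, 1579 in XN4, and 745 in KN1. Thinning left out cells with fewer reads, 465 of XN4, 648 of XN1, 464 of KN1, and 250 of CN4.

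**Figure D1:**
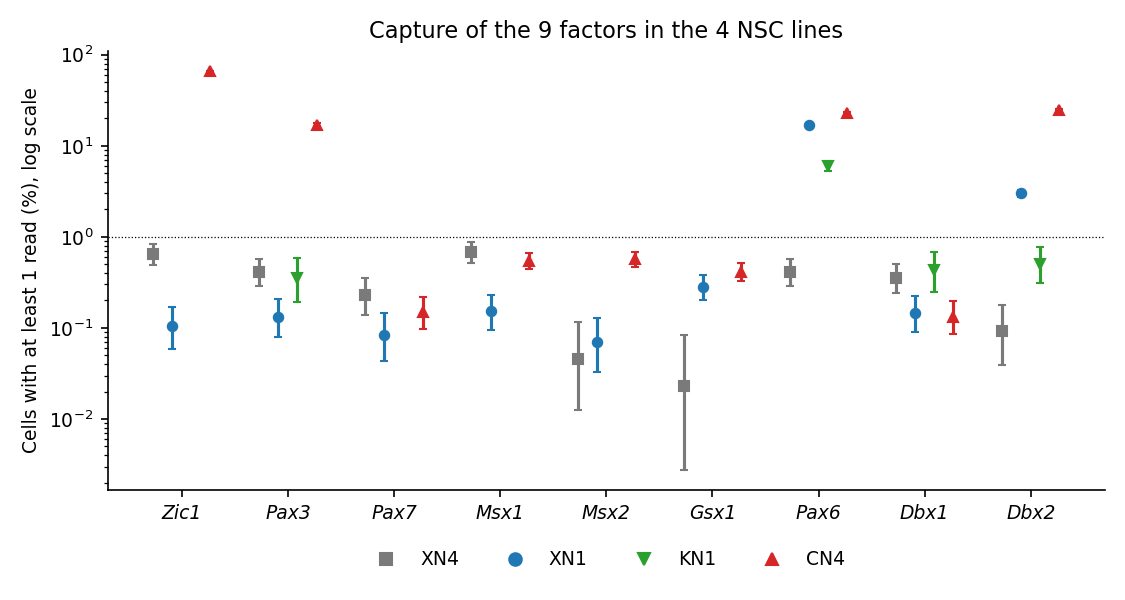
Cell fraction (percent of cells with at least 1 read, log scale) of each of the 9 factors in XN4 (squares), XN1 (circles), KN1 (inverted triangles), and CN4 (triangles), with exact 95% intervals; the dotted line marks 1%. Only *Zic1*, *Pax3*, *Pax6*, and *Dbx2* in CN4, *Pax6* and *Dbx2* in XN1, and *Pax6* in KN1 lie above the line, and 5 factors without a KN1 point are not listed in its table.

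*Zic1*, a zinc finger factor of the dorsal neural tube, had the largest cell fraction of the members in CN4. The gene lies at chr9:91358058-91365810 of GRCm38, on the minus strand, and its annotated body overlaps that of *Zic4* on the other strand. *Zic1* was captured in 66.0% of CN4 cells (65.3% to 66.7%), and after thinning still in 45.7% (43.9% to 47.4%). The fractions were 0.652% for XN4 and 0.104% for XN1, and 44.5% of CN4 cells had 2 reads or more. Its level over the cells of the normalized tables was 246 RPM in CN4 (240 to 253), 1.40 in XN4 (1.06 to 1.80), and 0.363 in XN1 (0.146 to 0.748), a ratio of 678 for CN4 over XN1 and of 176 for CN4 over XN4. Only CN4 was high, and the counting intervals of the levels did not overlap. Per kilobase of annotated exon, the *Zic1* level in all reads of CN4 was 33.4 RPM, above *Dbx2* (13.98), *Pax3* (4.36), and *Pax6* (3.07) on the same scale. Intronic reads were included in the counts, so reads need not scale with exon length. Without division by length, the levels were 190 RPM for *Zic1*, 48.5 for *Dbx2*, 35.9 for *Pax6*, and 27.0 for *Pax3*, so that *Pax6* was above *Pax3*.

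Among the members with a matched promoter window, *Zic1* had the most CpG dinucleotides, and its upstream sequence is shown as that of the gene with the largest fraction in CN4; that of *Pax6* is shown because the same gene was captured under all 3 Wnt conditions. The sequences are those of RefSeq on GRCm38.p6, 5′ to 3′ on the strand of the gene, cut where an annotated exon begins, with CpG in capitals. The *Zic1* run is chr9:91365811-91366018 (208 bases, minus strand), within the annotated *Zic4* gene, and the *Pax6* run is chr2:105668646-105668895 (250 bases, plus strand), within the annotated antisense gene *Pax6os1*.
Zic1: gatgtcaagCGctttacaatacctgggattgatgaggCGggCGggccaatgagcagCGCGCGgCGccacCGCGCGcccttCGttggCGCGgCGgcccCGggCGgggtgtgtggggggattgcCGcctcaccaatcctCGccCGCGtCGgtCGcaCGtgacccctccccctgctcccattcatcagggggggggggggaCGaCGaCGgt
Pax6: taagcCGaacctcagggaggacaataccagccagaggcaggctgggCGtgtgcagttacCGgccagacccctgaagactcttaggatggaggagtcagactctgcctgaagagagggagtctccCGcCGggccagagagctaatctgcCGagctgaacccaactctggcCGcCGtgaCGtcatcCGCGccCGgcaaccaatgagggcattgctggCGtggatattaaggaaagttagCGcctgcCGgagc
The runs hold 26 and 15 CpG. Over the whole 300-base windows (250 before the start site), *Zic1* had 31 CpG and 65.3% GC, and *Pax6* had 18 CpG and 58.7% GC at the start site shown and 16 CpG and 46.3% GC at a second start site, against medians of 7 CpG and 52.7% GC over 32851 windows of all genes. Windows were matched for 8 of the 9 members (9 windows; *Pax3* was not matched). None of the 9 windows held, on either strand, the letters CTTTGAT (a TCF/LEF motif, found in 3.73% of all windows), GACCACCCA (a GLI motif, 0.253%), or those of a paired homeodomain dimer motif (0.262%). These letters were searched in the windows only, and nothing follows from their absence about binding of the factors.

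*Pax3*, a paired box factor of the dorsal neural tube and neural crest (chr1:78101267-78197134, minus strand), was captured in 17.1% of CN4 cells (16.5% to 17.6%). The fraction was 0.131% in XN1, 0.352% in KN1, and 0.412% in XN4. Levels were 35.3 RPM in CN4 (33.0 to 37.9), 1.30 in XN4 (0.977 to 1.70), 0.508 in KN1 (0.278 to 0.852), and 0.311 in XN1 (0.114 to 0.678). *Pax3* was therefore high in CN4 alone, with ratios of 114 over XN1, 69.6 over KN1, and 27.2 over XN4; XN4 was above XN1, and the intervals of KN1 and XN1 overlapped. Over all XN4 cells and reads, the level was lower, 0.620 RPM (0.497 to 0.765), and the log2 ratio of CN4 over XN4 was 5.44 in place of 4.76. The 36 XN4 cells with *Pax3* held 87 reads, with up to 12 in a cell and a single read in 69.4% of these cells.

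*Pax6*, a paired box factor that is expressed through much of the forebrain and spinal cord progenitor zone (chr2:105668900-105697364, plus strand), was the only member captured in at least 1% of cells in 3 lines. The fraction was 23.0% in CN4 (22.4% to 23.7%), 16.7% in XN1 (16.1% to 17.3%), 5.96% in KN1 (5.25% to 6.74%), and 0.412% in XN4 (0.289% to 0.570%). At 3000 reads per cell it was 11.9% in CN4 (10.8% to 13.1%) and 11.5% in XN1 (10.4% to 12.6%), with overlapping intervals, and 4.76% in KN1 (4.08% to 5.51%). The read level did not set these 3 lines apart. It was 45.9 RPM in CN4 (43.2 to 48.8), 45.7 in XN1 (42.7 to 48.8), and 44.8 in KN1 (42.4 to 47.4), ratios of 0.982 for KN1 over XN1 and 1.01 for CN4 over XN1, and it was 0.409 in XN4 (0.238 to 0.655). The *Pax6* reads of KN1 were thus in fewer cells with more reads each. A KN1 cell with *Pax6* had a median of 4 reads, against 1 in XN1 and CN4, and 20.7% of such KN1 cells had a single read, against 72.7% in XN1 and 63.7% in CN4. This was not particular to *Pax6*. In KN1, *Sox2* had 3217 reads in 551 cells and *Irx3* 200 in 43, against 23068 in 9174 and 4560 in 3181 in XN1. Not every KN1 gene was so, and *Pax3* had 14 reads in 14 cells. KN1 cells also had the fewest genes per cell, and the part of this in the *Pax6* fraction was not tested. Reads of *Pax6* and of *Pax6os1* on the opposite strand can be told apart only if counting used the strand, which is not given in the sources used here.

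**Figure D2:**
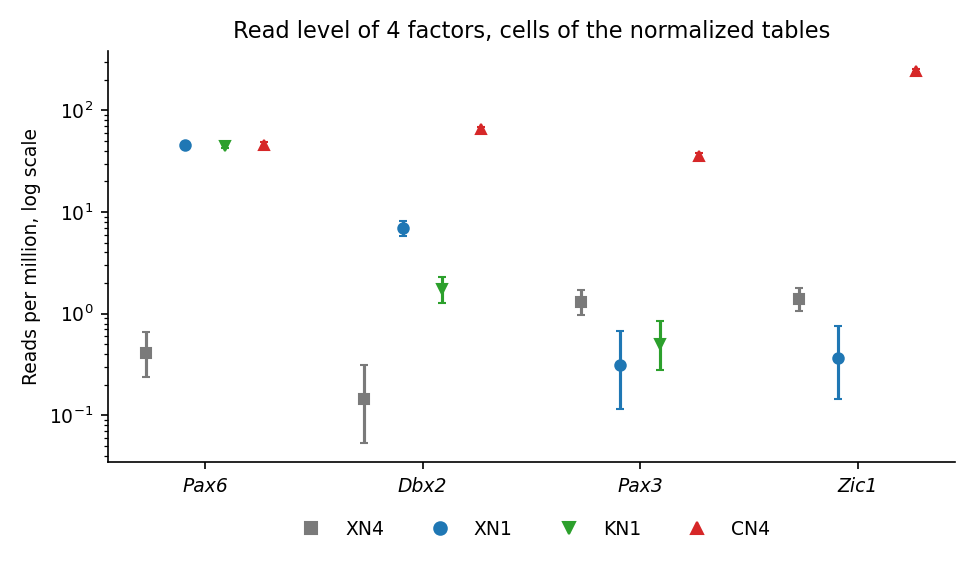
Read level (RPM, log scale, reads of ribosomal protein and mitochondrial genes left out) of *Pax6*, *Dbx2*, *Pax3*, and *Zic1* in XN4 (squares), XN1 (circles), KN1 (inverted triangles), and CN4 (triangles), summed over the cells of the normalized tables, with exact 95% Poisson intervals. *Pax6* lies between 44.8 and 45.9 in XN1, KN1, and CN4, whereas *Pax3* and *Zic1* are high in CN4 alone; *Zic1* is not listed in KN1.

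*Dbx2*, a homeobox factor of the intermediate neural tube (chr15:95623563-95655960, minus strand), showed a graded pattern. The fraction was 24.8% in CN4 (24.2% to 25.5%), 2.996% in XN1 (2.72% to 3.29%), 0.503% in KN1 (0.308% to 0.776%), and 0.0915% in XN4 (0.0395% to 0.180%). Thinned to 3000 reads, it was 14.6% in CN4, 2.00% in XN1, and 0.370% in KN1. Levels were 65.8 RPM in CN4 (62.6 to 69.3), 6.90 in XN1 (5.78 to 8.18), 1.74 in KN1 (1.28 to 2.31), and 0.144 in XN4 (0.0530 to 0.314). The 4 lines were ordered alike by fraction and by level, and no intervals of neighbours in the order overlapped. The KN1 level rests on 48 reads in 20 cells, with up to 7 in a cell. CN4 was higher than XN1 by a ratio of 9.54, than KN1 by 37.8, and than XN4 by 456. With all cells and all reads, the log2 ratio of CN4 over XN4 was 9.56 in place of 8.83, and that of XN1 over XN4 was 6.46 in place of 5.58.

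The other 5 members were rare. *Dbx1*, the paralog that marks a neighbouring intermediate domain (chr7:49631499-49636849, minus strand), was captured in 0.355% of XN4, 0.145% of XN1, 0.428% of KN1, and 0.132% of CN4 cells. In CN4, *Dbx2* and *Dbx1* thus stood at 4511 and 24 cells. *Pax7*, the paralog of *Pax3* (chr4:139737062-139833528, minus strand), was captured in 27 CN4 cells (0.149%), beside 3096 with *Pax3*, and in no more than 0.229% of cells of XN4 or XN1. *Msx1*, a homeobox factor downstream of BMP signals (chr5:37820485-37824583, minus strand), was captured in 0.675% of XN4, 0.152% of XN1, and 0.540% of CN4 cells. *Msx2* (chr13:53466884-53473074, minus strand) was captured in 0.567% of CN4 cells, 0.0692% of XN1 cells, and 0.0458% of XN4 cells. *Gsx1* (chr5:147188696-147190947, plus strand), a homeobox factor of dorsal progenitors, was captured in 0.413% of CN4, 0.284% of XN1, and 0.0229% of XN4 cells.

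Some of the rare reads were gathered in few cells. An XN4 cell with 33240 reads in all held 24 reads of *Zic1*, another held 15 of *Msx1*, and another 12 of *Pax3*; no other member was captured in any of the 3 cells. In CN4, 1 cell held 19 reads of *Msx1*, with *Dbx2*, and another held 10 of *Gsx1*, with *Pax6* and *Zic1*. *Msx1* had 5 reads or more in 12 of its 59 XN4 cells and in 3 of its 98 CN4 cells. No cells that should lack these factors could be set apart within a line, so the level given by free RNA in a library is not known; for scale, the genes of a list of other dorsal and intermediate factors that stayed below 1% of CN4 cells were captured in 0.00551% (*Ptf1a*, *Olig3*, and *Neurog1*) to 0.336% (*Lmx1b*) of them.

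Capture of the 4 common members rose with read depth. When CN4 cells were ordered by total reads into 4 groups, *Pax6* was captured in 12.9% of the group with a median of 5237 reads and in 34.9% of that with 15039 reads, and *Zic1* in 45.5% of the first group. *Pax3* went from 11.7% to 22.5% and *Dbx2* from 17.1% to 33.0% over the same groups. *Pax6* in XN1 went from 9.63% at a median of 3573 reads to 25.3% at 9446 reads, whereas KN1 at a median of 11376 reads had 10.2%. At like depth, XN1 was somewhat above CN4, with 15.4% (14.2% to 16.6%) at a median of 5257 reads against 12.9% (11.9% to 13.9%) at 5237. *Dbx2* in XN1 reached 4.12% in its deepest group, below the 17.1% of the shallowest CN4 group.

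**Figure D3:**
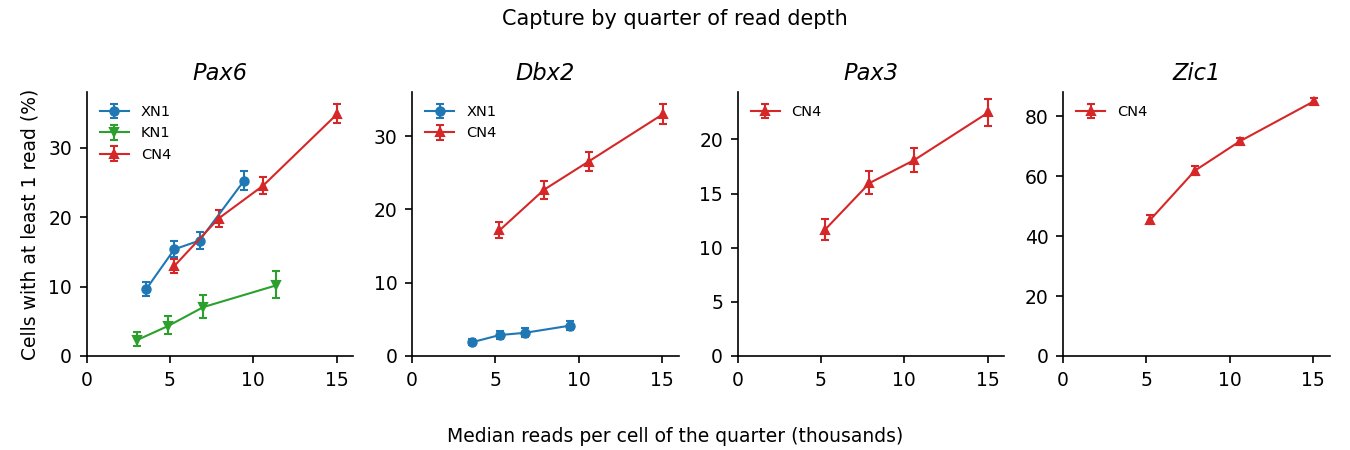
Cell fraction (percent with at least 1 read) against the median reads per cell in 4 groups of cells ordered by depth, for *Pax6*, *Dbx2*, *Pax3*, and *Zic1*, in the lines where the gene was captured in at least 1% of cells (XN1 circles, KN1 inverted triangles, CN4 triangles); bars are exact 95% intervals. For *Pax6*, XN1 lies somewhat above CN4 at like depth (15.4% at a median of 5257 reads against 12.9% at 5237) and KN1 lies below both. *Dbx2* in XN1 lies below CN4 at every depth.

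Between lines, genes with at least 50 reads in a pair were compared by the ratio of their levels, with a ratio of 2 as the limit. Of the 5 members with enough reads in XN1 and CN4, 3 were higher in CN4 (*Zic1*, *Pax3*, and *Dbx2*; 9.57% of all genes were), 1 was lower (*Gsx1*, 0.697 against 1.87 RPM, a ratio of 0.373; 9.9% of all genes were), and *Pax6* was within the limit. In all, 19.5% of 12986 genes were past it in either direction. The *Gsx1* difference was absent when all cells and all reads were used (log2 ratio −0.06). Their median log2 ratio was 3.25, against 0.10 over all genes. Between KN1 and CN4, 2 of 3 members were past the limit (45.5% of all genes), *Pax3* and *Dbx2*, both higher in CN4 (19.4% of all genes were). Between XN4 and CN4, 4 of 5 were past it (37% of all genes), all higher in CN4 (16.1% of all genes were), and *Msx1* was within the limit (1.40 and 0.915 RPM). Between XN4 and XN1, all 5 were past the limit (35.9% of all genes). They reached the read minimum through the line where they were high. *Pax3*, *Msx1*, and *Zic1* had 54, 58, and 58 reads in XN4 and 6, 5, and 7 in XN1, and *Dbx2* and *Pax6* had 133 and 880 in XN1 and 6 and 17 in XN4. *Pax6* and *Dbx2* were higher in XN1, with ratios of 112 and 47.8, and *Zic1*, *Pax3*, and *Msx1* were higher in XN4, where their levels were only 1.30 to 1.40 RPM. Between XN4 and KN1, 3 of 3 were past it (47.5%), with *Pax6* and *Dbx2* higher in KN1 (27.6% of all genes were) and *Pax3* lower. Between XN1 and KN1, 1 of 2 was past it (50.3%), *Dbx2*, which was lower in KN1 (20.6% of all genes were, and 29.7% were higher). A member with few reads in 1 line is compared only if it is high in the other, which favours a ratio past the limit. The counts of members past the limit are therefore no result of their own beside the shares of all genes. These comparisons share lines and are not independent of each other. Beside the differences with XN4, its mesenchymal markers were high and its *Sox2* low, as given above, and their part was not tested.

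Genes with a profile like those of the members were looked for among 12083 genes listed in the 4 normalized tables, by the largest difference in log2(RPM + 1) in any line. The nearest to *Pax6* were *Apba2* (0.29), *Igsf11* (0.32), and *Lama5* (0.45), each low in XN4 and between 39.0 and 63.1 RPM in the other lines. For *Dbx2* the nearest were *Zcchc18* (0.94), *Dll3* (1.29), and *Dbndd2* (1.29), and for *Pax3* they were *Wif1* (1.14), *B3gat2* (1.40), and *Ehd3* (1.45). *Wif1* codes for a secreted Wnt inhibitor and *Dll3* for a Notch ligand. For *Zic1*, compared over XN4, XN1, and CN4 only, the nearest included *Sez6l* (0.94) and *Nell2* (0.96). With 4 lines or fewer, such likeness is a description.

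In CN4 the 4 common members occurred together in single cells about as often as depth alone would give, with a small excess. Cells with both genes of a pair were counted and divided by the number expected for independent genes within 20 strata of cells ordered by total reads. Summed over the 6 pairs, 11550 were seen and 11062 expected, a ratio of 1.04 (1.03 to 1.06); without strata, the ratio was 1.12. A cell with 3 or 4 members enters several pairs, so the pair counts are not independent. In all, 7176 cells held 2 or more of the 9 members. The Poisson interval also ignores that the number of cells with each gene is fixed, so its width is only approximate. The ratio of *Pax3* was 1.13 with *Dbx2* (925 cells, 1.05 to 1.20) and 1.12 with *Pax6* (878 cells, 1.05 to 1.20). The ratio was 1.06 for *Pax3* and *Zic1* (1.02 to 1.11) and 1.05 for *Pax6* and *Zic1* (1.02 to 1.09). It was 1.02 for *Pax6* and *Dbx2* (0.960 to 1.08) and 0.993 for *Dbx2* and *Zic1* (0.959 to 1.03), with intervals that include 1. The order of the pairs changed with at least 2 reads for capture, at which *Pax6* with *Dbx2* had 1.15, *Pax6* with *Zic1* 1.13, *Pax3* with *Zic1* 1.12, *Pax3* with *Dbx2* and with *Pax6* 1.08 each, and *Dbx2* with *Zic1* 1.00. For scale, over 11622 genes set against *Pax3*, the median ratio was 1.00, and 5.10% of genes were at or above the value of *Dbx2* and 5.55% at or above that of *Pax6*. Set against *Zic1*, 1.93% of genes were at or above *Pax3* and 70.5% at or above *Dbx2*. In XN1, *Pax6* and *Dbx2* were together in 76 cells, where 80.7 were expected (0.942, 0.742 to 1.18).

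By number, 19.5% of CN4 cells had none of the 4 members, 41.7% had 1, 28.5% had 2, 8.85% had 3, and 1.42% had all 4. The last were 258 cells where 177 were expected within strata, with a median of 13671 reads per cell, against 6940 in cells with none. The most frequent content was *Zic1* alone (5484 cells, 30.2%), followed by *Zic1* with *Dbx2* (1780 cells) and *Zic1* with *Pax6* (1764 cells). At least 2 of the 9 members were captured in 39.5% of CN4 cells, 0.706% of XN1, 0.194% of XN4, and 0.0503% of KN1 cells.

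**Figure D4:**
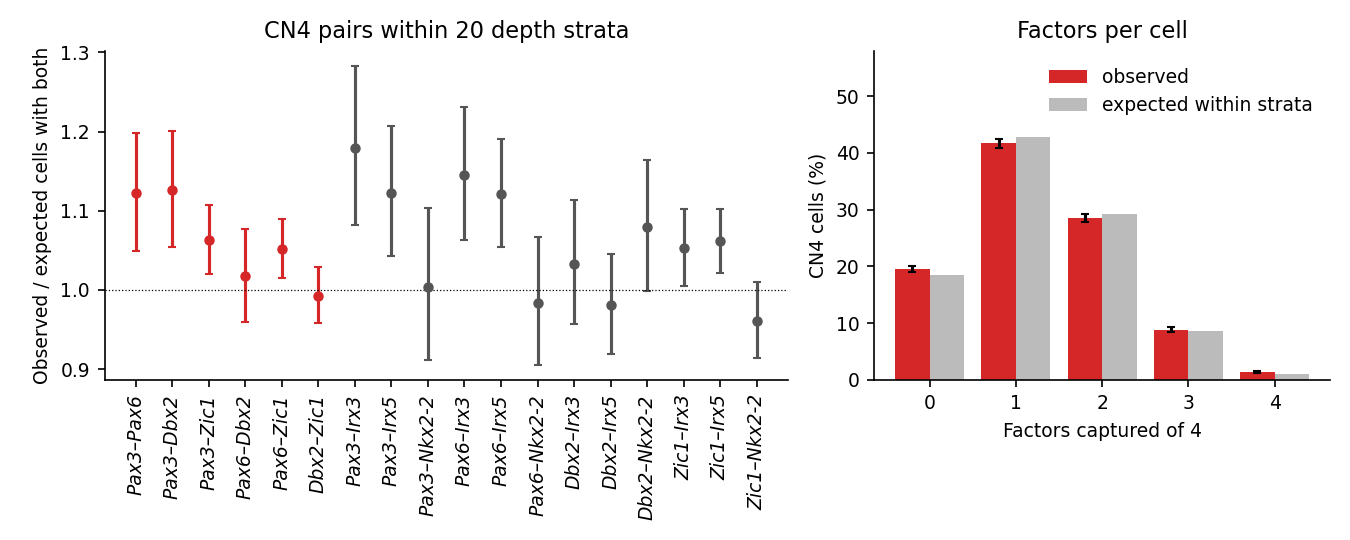
Left, observed over expected number of CN4 cells with both genes of a pair within 20 strata of read depth, for the 6 pairs of members (red) and for each member with *Irx3*, *Irx5*, and *Nkx2-2* (grey), with exact 95% Poisson intervals; the dotted line marks 1. Right, percent of CN4 cells with 0 to 4 of the 4 common members, observed (red, exact 95% intervals) and expected within strata (grey); all ratios lie between 0.96 and 1.18, and 1.42% of cells had all 4 against 0.974% expected.

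The partners outside the member list were *Irx3* and *Irx5*, Iroquois factors of the intermediate neural tube, *Nkx2-2* and *Olig2*, which mark ventral progenitors, and *Sox2*. In KN1, *Pax6* and *Sox2* were together in 61 cells (1.46, 1.12 to 1.88). The ratio of the same pair was 1.03 in CN4 (0.996 to 1.06) and 1.02 in XN1 (0.973 to 1.07). Ratios over all genes were computed for CN4 and XN1 but not for KN1, so the KN1 ratio has no such scale beside it. The strata are of total reads and need not make the number of genes per cell equal. Whether the KN1 ratio is particular to this pair was not tested. The other 3 common members of CN4 had ratios of 1.01 (*Dbx2*) to 1.03 (*Pax3*) with *Sox2*. The other 4 partners of *Pax6* in KN1 were found with it in 2 to 82 cells, with intervals that include 1. In CN4, *Irx3* was captured with *Pax3* in 538 cells (1.18, 1.08 to 1.28) and with *Pax6* in 733 (1.14, 1.06 to 1.23), and *Irx5* with *Pax3* in 740 (1.12, 1.04 to 1.21) and with *Pax6* in 1044 (1.12, 1.05 to 1.19). With *Dbx2* the intervals include 1, at 1.03 (0.957 to 1.11) for *Irx3* and 0.981 (0.919 to 1.05) for *Irx5*. In XN1 they also do for *Irx3* with *Pax6* (0.993, 0.914 to 1.08) and with *Dbx2* (0.880, 0.710 to 1.08). *Nkx2-2* was found with *Pax3* in 428 cells (1.00, 0.911 to 1.10), with *Pax6* in 585 (0.984, 0.906 to 1.07), and with *Dbx2* in 672 (1.08, 0.999 to 1.16). With *Zic1* it was found in 1575 cells (0.961, 0.914 to 1.01). These intervals include 1, but a Poisson interval ignores the fixed number of cells with each gene and is wide for common genes. A small avoidance or excess of *Nkx2-2* is therefore not excluded. *Olig2* was captured in 86.0% of all CN4 cells and was also found in 86.0% of those with *Pax3*, 87.3% of those with *Pax6*, and 91.1% of those with *Dbx2*. Within strata, the ratio of *Olig2* was 1.04 with *Dbx2* (1.01 to 1.07), a small excess. It was 0.982 with *Pax3* (0.945 to 1.02), 0.990 with *Pax6* (0.958 to 1.02), and 0.986 with *Zic1* (0.967 to 1.01).

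The 4 common members were compared between cells with and without reads of *Mki67*, a marker of cycling cells, and *Pax6*, *Pax3*, and *Zic1* were captured more often with *Mki67* in at least 1 line. At 3000 reads per cell, *Pax6* was captured in 15.1% of 1581 CN4 cells with *Mki67* and in 8.78% of 1617 without, a difference of 6.34 percentage points (3.12 to 9.53 between the ends of the 2 exact intervals). In XN1 it was captured in 15.7% of 783 cells with *Mki67* and in 10.1% of 2474 without, 5.60 points (1.87 to 9.50), and in KN1 in 5.68% and 4.38%, 1.30 points (−0.915 to 3.67). With at least 2 reads for capture, the *Pax6* difference was 1.80 points in CN4 and 1.15 in XN1, and with *Top2a* in place of *Mki67* it was 3.53 points in CN4 and 5.68 in XN1. Without thinning it was 11.1 points in CN4 and 9.64 in XN1. In CN4, *Zic1* was higher by 6.09 points (48.8% and 42.7%; 1.15 to 11.0) and *Pax3* by 2.95 points (10.1% and 7.17%; 0.135 to 5.75). The *Pax3* difference was 1.29 points with at least 2 reads for capture and 2.11 with *Top2a*, and that of *Zic1* 4.92 and 6.18. *Dbx2* did not follow them, with 13.9% and 15.3% in CN4 (−1.36 points, −4.88 to 2.16) and 1.79% and 2.06% in XN1 (−0.27 points, −1.72 to 1.44).

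The ratio of the fraction with *Mki67* to that without was 1.72 for *Pax6* in CN4, and 3.78% of 10977 genes were at or above it, with a median of 0.980 over all genes. In XN1 it was 1.55, with 9.71% of 10944 genes at or above it and a median of 1.00. The ratio of *Pax3* was 1.41 (6.91% of genes at or above), that of *Zic1* 1.14 (20.1%), and that of *Dbx2* 0.911 (65.6%). Cells with and without *Mki67* had like numbers of genes at this depth, with medians of 1779 and 1754 in CN4 and of 1781 and 1714 in XN1, but not in KN1, with 830 and 712.5. There the ratio of *Pax6* was 1.30, beside a median of 1.15 over all genes. Among genes captured in at least 5% of cells, those with the highest ratio to *Pax6* within depth strata were *Nek2* (1.60), *Kif20a* (1.55), and *Kif2c* (1.54) in XN1, a mitotic kinase and kinesins of cell division. In CN4 they were *Pif1* (1.41), *Tnfaip8l1* (1.37), and *Kif14* (1.35). *Pif1* (1.10), *Cenpl* (1.10), and *Gas2l3* (1.10) led for *Zic1*, *Hepacam* (1.34), *Slc30a10* (1.32), and *Scrg1* (1.31), of which *Hepacam* is known from glial cells, led for *Dbx2*, and *Nebl* (1.35), *Fosb* (1.33), and *Fam227b* (1.32) for *Pax3*. These genes were ranked on the same cells and are a description.

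**Figure D5:**
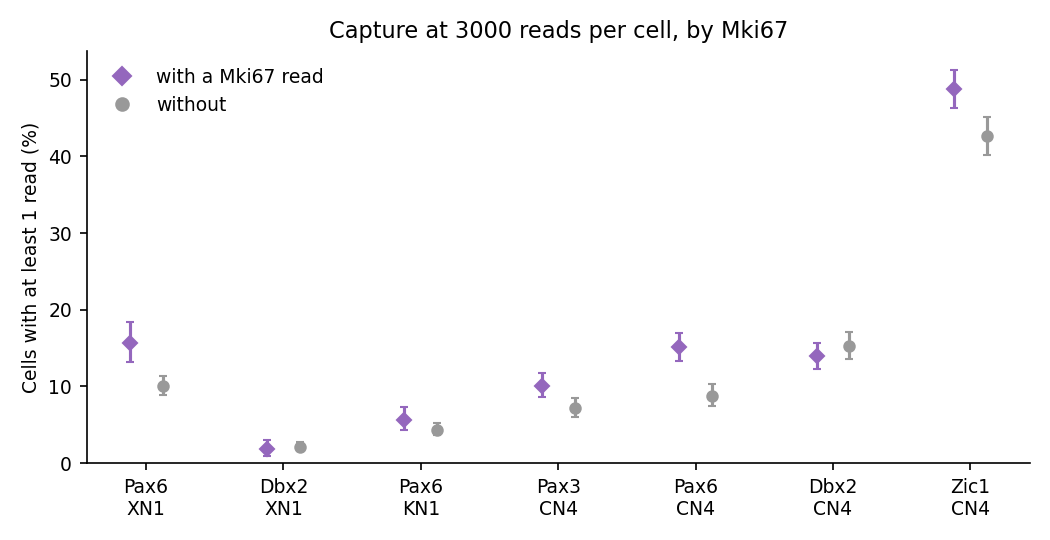
Cell fraction (percent with at least 1 read, each cell thinned to 3000 reads) of members captured in at least 1% of thinned cells, in cells with a *Mki67* read (diamonds) and without (circles), with exact 95% intervals. *Pax6* in XN1 and CN4 is higher in cells with *Mki67* (15.7% against 10.1%, and 15.1% against 8.78%), and *Dbx2* is not.

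*Zic2*, *Zic4*, and *Zic5* did not share one profile with *Zic1*. *Zic4*, whose gene overlaps *Zic1* on the opposite strand, was captured in 8.51% of CN4 cells, 0.355% of XN4, and 0.0415% of XN1 cells, thus also mainly in CN4. As for *Pax6*, whether reads of the overlapping pair were told apart by strand is not given, which touches the *Zic4* fraction and its coexpression with *Zic1*. *Zic2* and *Zic5* were captured in XN4 as well, *Zic2* in 18.8% of XN4, 2.22% of XN1, and 12.7% of CN4 cells, and *Zic5* in 19.4%, 6.84%, and 29.0%. Within CN4, *Zic1* reads were found in 75.5% of cells with *Zic4* (1167 cells, ratio within strata 1.09, 1.02 to 1.15) and in 76.1% of those with *Zic2* (1.05, 1.00 to 1.10).

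Among 21 other dorsal and intermediate genes, 9 of the 21 listed in CN4 were captured in at least 1% of its cells (48.3% of all genes were), 8 of 19 in XN1 (48.8%), 7 of 18 in XN4 (49.1%), and 5 of 9 in KN1 (73.7%). Of the 10 with enough reads in XN1 and CN4, 7 were at least 2-fold higher in CN4 (among them *Gbx2*, *Meis2*, *Zic2*, *Zic4*, and *Zic5*) and 2 were lower (*Irx3* and *Lmx1b*), with a median log2 ratio of 2.22; of all genes, 9.57% were higher and 9.9% lower. *Gbx2*, a factor of the anterior hindbrain, was captured in 20.4% of CN4, 2.05% of XN1, and 0.805% of KN1 cells. *Irx3* was higher in both XAV lines than in CN4, and lowest in KN1, with 13.5% in CN4, 22.0% in XN1, 37.5% in XN4, and 1.08% in KN1, and *Meis2* was captured in 45.0% of CN4 and 39.4% of KN1 cells, and its level over the normalized tables was more than 2-fold lower in CN4 than in KN1. The domain factors *Lmx1a*, *Gsx2*, *Atoh1*, *Neurog1*, *Prdm12*, and *Ptf1a* stayed below 1% in all lines that list them.

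Genes of the signals that pattern the axis also differed. Of 14 BMP, Wnt, and Hedgehog pathway genes, 10 could be compared between XN1 and CN4, and 4 were higher in CN4 (*Bmp5*, *Bmp7*, *Gli1*, and *Wnt3*; 9.57% of all genes were) and 0 lower (9.9% of all genes were). *Bmp5*, a BMP ligand, was captured in 50.4% of CN4 cells and in no more than 0.503% of those of the other lines. *Bmp4* was captured in 13.5% of XN4 cells and 0.452% of CN4 cells, and *Bmp7* in 16.1% of CN4 and 3.74% of XN4 cells. *Id1* and *Id3*, which respond to BMP signals, were captured in 23.6% and 70.0% of XN4 cells and 12.9% and 76.0% of CN4 cells. The Wnt ligands of the roof plate, *Wnt1* and *Wnt3a*, and the ligand *Gdf7* were below 0.2% in the lines that list them. Among 9 ventral genes, *Olig2* was captured in 86.8% of XN1, 86.0% of CN4, 27.2% of KN1, and 0.0572% of XN4 cells, and *Nkx2-2* in 12.5%, 12.8%, 1.89%, and 0.0572%. *Foxa2* and *Shh*, genes of the floor plate, were captured in 5.63% and 2.39% of CN4 cells.

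Markers of other cell types that use these factors were read per line. In CN4, where *Pax3* was common, the muscle precursor genes *Myf5* and *Myod1* were captured in 0.00551% and 0.121% of cells, and the neural crest genes *Sox10* and *Tfap2b* in 2.06% and 0.556%. Of the 8 neural crest genes, 3 were captured in at least 1% of CN4 cells (*Ets1*, *Sox9*, and *Sox10*; 48.3% of all genes were), *Sox9* and *Ets1* also being expressed in neural progenitors and other cells, and *Foxd3* was not listed. In XN4, 4 of the 8 were captured in at least 1% of cells (49.1% of all genes were; *Sox9*, *Ets1*, *Snai2*, and *Twist1*), with *Sox10* and *Foxd3* at 0.0229% each. The summed level of the neural crest list, on the same scale as the mesenchymal sums, was 455 RPM in XN1, 318 in CN4, 288 in XN4, and 185 in KN1, of which *Sox9* alone gave 412 in XN1 and 263 in CN4. Of the 8 genes, 4 could be compared between XN1 and CN4, with a median log2 ratio of −0.06; *Sox10* was higher in CN4 (9.57% of all genes were) and *Twist1* lower (9.9%). Of the 10 mesenchymal markers, 9 could be compared between XN1 and CN4, and 6 were at least 2-fold higher in CN4 (*Col1a1*, *Col3a1*, *Dcn*, *Lum*, *Postn*, and *Prrx1*; 9.57% of all genes were) and 2 lower (*Col1a2* and *Pdgfra*; 9.9% of all genes were). *Prrx1* was captured in 38.8% of CN4, 4.82% of XN1, 0.931% of KN1, and 86.7% of XN4 cells. The others that were higher in CN4 were captured in few of its cells, *Col1a1* in 1.59%, *Dcn* in 1.17%, *Col3a1* in 1.04%, *Lum* in 0.479%, and *Postn* in 0.446%. *Zic1* was captured in 66.0% and *Pax3* in 17.1% of CN4 cells. The part of the mesenchymal markers in the differences of *Pax3* and *Zic1* between XN1 and CN4 was not tested. Of the 10 neural progenitor genes, all were captured in at least 1% of CN4 cells (48.3% of all genes were), 9 in XN1 (48.8%), 9 in KN1 (73.7%), and 5 in XN4 (49.1%).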

How the data were processed

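The 4 libraries, 1 for each line, were grouped by the line named in the sample labels. A count of reads per gene and cell was deposited for CN4, XN1, and XN4, from the BD Rhapsody WTA Analysis Pipeline (1.12.1 per the file headers) with GRCm38 and with intronic reads included. Natural log values were deposited for every line, normalized by the authors with Seurat 4.3.0 to 10000 reads per cell, for at most 4000 cells drawn at random per line, without ribosomal protein and mitochondrial genes. These were turned back into reads, of which 100% were whole within a tolerance of 0.01. No table of all KN1 reads was used here, so KN1 values come from the normalized table, which leaves out rare genes (the rarest listed gene is in 7 cells).

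Cell fractions were computed over the cells of the tables of all reads (KN1, normalized table), and levels of members, ratios between lines, and *Mki67* contrasts over the normalized tables. Summed levels of marker lists, and levels per kilobase, are over all reads, and for KN1 without ribosomal protein and mitochondrial genes. A line with no read of a compared gene was set to 3 reads. No doublets were called and no cell was filtered out further. With 1 library per line, no test between lines was made. Gene names were matched to GENCODE and promoter windows to RefSeq. The named genes are all 9 members, listed genes captured in at least 5% of cells of a line, and the 3 genes nearest to each common member; genes of the marker lists, rare listed genes, the *Zic* pairs, and the genes ranked by coexpression were named after their values were seen. The members and lists were chosen with earlier results of these data known. Procedures were tested on simulated data: of genes changed 4-fold between simulated XN4 and CN4 sums, 97.0% of 200 were called in the right direction (13341 genes compared). Python 3.11.15, numpy 2.4.6, scipy 1.17.1, and, for TMM scaling factors only, edgeR 4.0.16 were used. Alternatives were other read minimums, limits, depths, strata, scalings, and subsets of cells. Results that need certain items are left out of the text.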

Additional observations from a re-analysis of the deposited data

Results flagged for a closer look

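Capture of any of the 9 members, at 3000 reads per cell, differed in direction between the lines when cells with and without *Mki67* reads were compared. It was lower by 0.941 percentage points with *Mki67* in XN4 (−0.941, from 1 of 758 cells with and 29 of 2704 without; −1.53 to 0.0134), and higher by 5.05 points in XN1, 1.19 in KN1, and 8.41 in CN4. The difference between the lines was not tested, and with 1 library per line it cannot be.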

How the results depend on the processing

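Of 109 values of the main counts and ratios under alternative settings, 95 stayed near the first value (within 1.5 times for counts, within the counting interval for others). Among single genes, 204 of 244 were rated the same. For cell fractions, coexpression ratios, and *Mki67* contrasts, this meant within the counting interval. For single-gene ratios between lines, it meant only the same side of the 2-fold limit, so their size could change. Genes below the read minimum of an alternative were not rated under it. No ratio past 2-fold and no *Mki67* contrast whose interval excluded 0 changed direction. Values near no change did: the XN1 coexpression ratio, 0.942, was 1.05 without strata and 1.11 with at least 2 reads, and that of *Dbx2* and *Zic1* in CN4, 0.993, was 1.05 and 1.00 (1.00153). The *Mki67* contrast of *Dbx2* in CN4 was 0.55 points without thinning and 0.028 without the 5% deepest cells, and in XN1 0.15 points with *Top2a*. The log2 ratio of *Pax6* was 0.032 in place of −0.026 for KN1 over XN1 without the deepest cells, and −0.075 in place of 0.0084 for CN4 over XN1 with TMM factors. With a share of 0.5% in place of 1%, 2 members were captured in XN4 in place of 0 and 2 in KN1 in place of 1. With at least 2 reads for capture, XN1 had 1 member in place of 2, the CN4 coexpression ratio was 1.08, and the difference by *Mki67* in XN1 was 0.997 percentage points in place of 5.05. With a minimum of 10 reads, the members past 2-fold numbered 7 between XN4 and CN4, 7 between XN1 and CN4, and 2 between XN1 and KN1; with 200 reads, there were 1 between XN4 and XN1, 1 between XN4 and KN1, and 0 between XN1 and KN1. These counts change as fewer or more genes are compared. The CN4 coexpression ratio was 1.12 without strata and 1.06 over the cells of the normalized table, where the XN1 ratio was 0.648 (13 cells, 20.1 expected, interval 0.345 to 1.11). The cause was not tested. Leaving out cells with shared labels was added after seeing the data and moved no count. Depth limits the rare members: 0 reads in the 14452 XN1 cells would allow up to 0.0208%, taking 3 cells as the limit for 0. No paired analysis was possible because each line is 1 sample. TMM factors lay between 0.964 and 1.02 and changed no count of members.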
